A study of Mus musculus with 15 samples.

Results

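The genes of the hypoxia-inducible factors (HIFs) and of the enzymes that sense oxygen for them were followed across 15 RNA-seq libraries of mouse cells. They were chosen by gene name: the alpha subunits Hif1a, Epas1 and Hif3a, the beta subunits Arnt and Arnt2, the prolyl hydroxylases Egln1, Egln2 and Egln3, the ubiquitin ligase subunit Vhl, and the asparaginyl hydroxylase Hif1an. These are 10 of the 49585 genes in the count table, and all of them had reads. The study asked how glioma stem cells turn into tumor derived endothelial cells (TDECs) and how TDECs respond to the antidepressant sertraline. It has 5 groups of 3 libraries, all labelled with the strain C57BL/6. The treated TDECs, called TDEC sertraline, had been differentiated for 5 days and then received 5 µM sertraline for 24 h. The line 005 is a mouse glioma stem cell line, kept in a stem cell medium without serum. TDECs of day 2 and day 5 were grown from 005 in EGM-2, an endothelial growth medium, at 1% oxygen. Untreated TDECs carry no day in their labels and were taken as day 5 from the protocol. Mouse brain microvascular endothelial cells (MBMECs) were purchased cells, grown in yet another medium with serum. No oxygen level is given for 005 or MBMECs, so low oxygen, the medium and differentiation changed together between 005 and TDECs and cannot be told apart. The treated cells may have been a day older at harvest than the untreated ones, so drug and age cannot be told apart either.

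HIF is a transcription factor made of an alpha and a beta subunit. While oxygen is present, the EGLN enzymes hydroxylate prolines of the alpha subunit, VHL binds the hydroxylated protein, and the proteasome destroys it. HIF1AN hydroxylates an asparagine that blocks the contact with coactivators. When oxygen runs short, the alpha subunit accumulates, pairs with ARNT or ARNT2 and switches on genes of glycolysis, angiogenesis and oxygen sensing, EGLN1 and EGLN3 being known targets of HIF themselves. Control of HIF1A lies mostly at the protein, which RNA-seq does not measure. EPAS1, also called HIF2A, is abundant in endothelium and has been studied in glioma stem cells.

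The letters on which the sensors act are short. The following stretches of 36 bases hold the codon of the proline that EGLN enzymes hydroxylate in each alpha subunit, in capitals, with codons counted from 1 in the longest open reading frame of GENCODE M21 transcripts and positions in GRCm38 (mm10).
Hif1a codon 402, chr12:73939680-73939715, exon 9 of 15, plus strand: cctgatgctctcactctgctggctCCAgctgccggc
Hif1a codon 577, chr12:73941967-73942002, exon 12 of 15, plus strand: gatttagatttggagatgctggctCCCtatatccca
Epas1 codon 405, chr17:86824561-86824596, exon 9 of 16, plus strand: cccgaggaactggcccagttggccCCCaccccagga
Epas1 codon 530, chr17:86827504-86827539, exon 12 of 16, plus strand: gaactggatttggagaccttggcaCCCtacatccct
Hif3a codon 489, chr7:17041196-17041231, exon 12 of 15, minus strand: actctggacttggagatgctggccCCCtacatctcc
The stretch around codon 577 of Hif1a shared 27 of 36 bases with that of codon 530 of Epas1 and 27 of 36 with that of codon 489 of Hif3a. The stretches of codon 402 of Hif1a and codon 405 of Epas1 shared 20 of 36 bases.

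Promoters are shown for Egln1, Egln3 and Hif3a, which with Epas1 were the members called higher on day 5 over 005. RefSeq (GRCm38.p6) gave windows of 300 bases, 250 before and 50 after the start site, for 9 of the 10 genes, and none for Epas1. Capitals mark the core of the HIF binding site, ACGTG or GCGTG on either strand.
Egln1 promoter, chr8:124949205-124949504, minus strand: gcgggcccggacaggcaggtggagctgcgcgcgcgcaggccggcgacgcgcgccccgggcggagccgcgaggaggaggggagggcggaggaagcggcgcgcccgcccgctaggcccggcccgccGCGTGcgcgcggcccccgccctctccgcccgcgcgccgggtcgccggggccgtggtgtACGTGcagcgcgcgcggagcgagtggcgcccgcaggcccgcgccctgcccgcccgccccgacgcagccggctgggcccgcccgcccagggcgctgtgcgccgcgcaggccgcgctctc
Egln3 promoter, chr12:54203825-54204124, minus strand: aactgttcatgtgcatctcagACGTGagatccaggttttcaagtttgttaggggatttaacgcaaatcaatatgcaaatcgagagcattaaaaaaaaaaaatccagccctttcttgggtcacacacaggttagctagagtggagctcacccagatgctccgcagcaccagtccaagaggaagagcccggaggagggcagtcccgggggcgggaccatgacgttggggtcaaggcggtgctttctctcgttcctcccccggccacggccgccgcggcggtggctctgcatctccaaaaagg
Hif3a promoter, chr7:17062378-17062677, minus strand: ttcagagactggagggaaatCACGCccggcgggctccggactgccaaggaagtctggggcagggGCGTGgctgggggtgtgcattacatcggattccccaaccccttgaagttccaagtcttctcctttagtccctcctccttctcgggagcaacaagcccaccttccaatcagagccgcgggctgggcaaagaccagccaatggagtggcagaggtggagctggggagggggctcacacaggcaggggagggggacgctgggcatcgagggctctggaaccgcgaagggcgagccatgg
The Egln1 window held 2 cores, 126 and 68 bases before the start site, the Egln3 window 1 core at 229 bases, and the Hif3a window 2 cores at 230 and 186 bases. Of 32851 such mouse windows 43.8% held at least 1 of these cores, so a core is common. The Hif1a window held 3 ACGTG cores, of which 2 were the opposite strands of 1 palindrome CACGTG, present in 7.15% of windows, the Arnt window held 1 core, and the windows of Arnt2, Vhl and Hif1an held none. Egln2, which was called in no comparison, had 2 windows, 1 of them with 6 matches, the most of any member, and the other with 1. Of the 6 matches, 2 were again the opposite strands of 1 palindrome CACGTG. These matches are descriptions of letters, and binding was not measured.

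Libraries held 13557376 to 13639357 counts in TDEC sertraline, 12732819 to 12972933 in 005, 12049384 to 13642496 in TDEC day 2, 11283680 to 12455832 in TDEC day 5 and 15617686 to 17093061 in MBMECs. Replicate 3 of 005, replicate 3 of TDEC day 2 and replicate 2 of TDEC sertraline stood apart from their groups. Their chi-square per gene against the other libraries was 6.97 to 11.7, where the remaining pairs of those groups were at 2.15 to 2.50. The labels call TDECs endothelial, and the study stained them for the proteins CD31 and CD34 and saw them form tubes. In RNA, the 16 endothelial markers summed to 10222 to 10483 CPM in MBMECs (counts scaled to library size, with TMM factors). Their sum was only 48.9 to 55.2 CPM on day 5 and 9.71 to 14.3 CPM in 005. Flt1 alone had 40.8 CPM of this on day 5 and 1.69 CPM in 005. Of 6 tested markers 2 were called higher on day 5 over 005, where 23.5% of all genes were called, and the median log2 fold change of the 6 was -0.37. Vwf (-0.97) and Pecam1 (-0.90) were lower at an adjusted p under 0.05 by the edgeR test described below, short of the fold threshold. Tie1, Cldn5 and Sox17 were at 0 counts in all day 5 libraries. Glioma and neural stem cell markers were at 1 CPM or more, 8 of 8, in every TDEC group. The study calls the replicates of the drug experiment biological. For the other groups no source says that cultures were separate, and the tests measure only the spread between these libraries, which may be technical.

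Genes were compared by edgeR's two-sided quasi-likelihood test, which gave every adjusted p below (Benjamini-Hochberg over all tested genes). A call needed both an adjusted p under 0.05 and a fold change of more than 2 in either direction, that is a log2 fold change beyond 1 or -1. In the bulk RNA used here, fewer cells with a transcript and less of it per cell cannot be told apart.

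**Figure D1:**
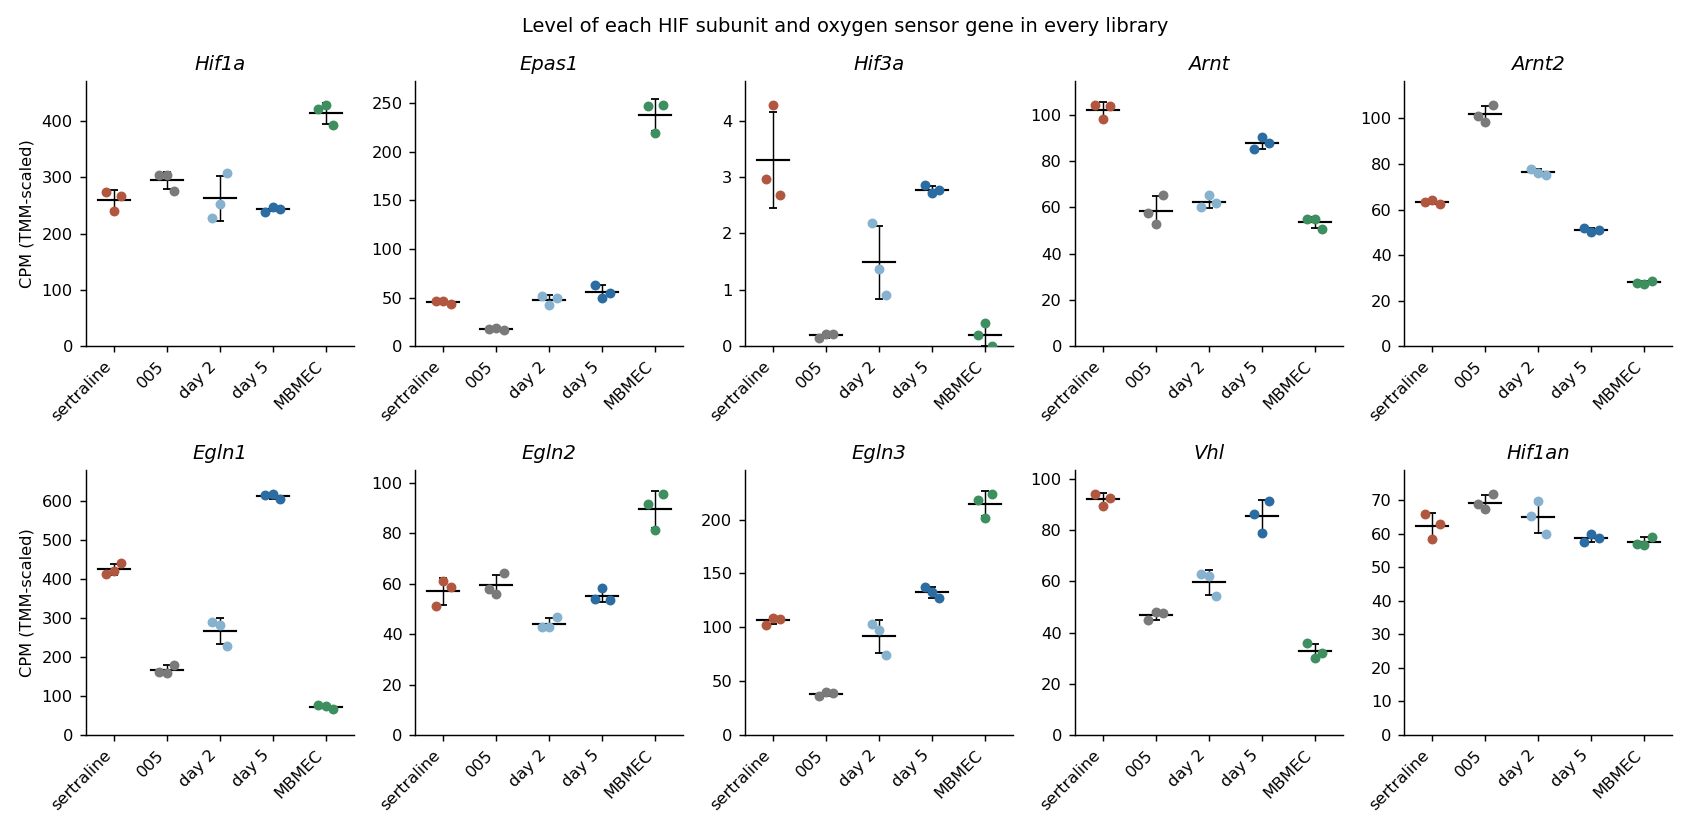
Level of each of the 10 genes in CPM (TMM-scaled, axis from 0), with 1 point per library, the group mean as a horizontal line and the SD as error bar, for TDEC sertraline, 005, TDEC day 2, TDEC day 5 and MBMEC. Egln1 reaches a mean of 614 CPM on day 5, and Epas1 and Egln3 are highest in MBMECs.

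Hif1a, the widely expressed alpha subunit, was the most abundant of the 3 alpha genes in every group, and its RNA differed little along the differentiation series. It had 274, 241 and 267 CPM in the libraries of TDEC sertraline. The series ran from 304, 304 and 277 CPM in 005 through 229, 252 and 308 CPM on day 2 to 239, 247 and 244 CPM on day 5. MBMECs had 421, 429 and 393 CPM, above all other libraries. Replicate 3 of day 2, which stands apart as a library, was the highest of the TDECs. The log2 fold change of TDEC day 5 over 005 was -0.27 (SE 0.06, adjusted p = 0.00155), short of the 2-fold threshold. That of TDEC day 2 over 005 was -0.18 (SE 0.11, adjusted p = 0.193), and without replicate 3 of day 2 it was -0.31 (adjusted p = 0.00959). The antisense gene Gm15283 overlaps 21050 bases of Hif1a and had 385 to 1072 counts, against 2690 to 6529 for Hif1a. The kit was directional, but the strand setting of the counting is not given in the sources used here, so reads of this pair may not be fully separated.

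Epas1, the alpha subunit known from endothelium, rose early and stayed high. It had 46.5, 46.5 and 43.2 CPM in TDEC sertraline. The series gave 17.3, 18.5 and 16.8 CPM in 005, 51.7, 41.9 and 49.9 CPM on day 2, and 63.1, 49.99 and 54.5 CPM on day 5. MBMECs had 247, 219 and 248 CPM. No TDEC library overlapped 005 or MBMECs, whereas days 2 and 5 overlapped each other. The log2 fold change over 005 was 1.43 on day 2 (SE 0.11, adjusted p = 3.79e-06) and 1.68 on day 5 (SE 0.10, adjusted p = 2.61e-08). Day 5 over day 2 gave 0.23 (SE 0.11, adjusted p = 0.0753). Without replicate 3 of day 2 it was 0.26 (adjusted p = 0.0119), and without replicate 2 of day 5 it was 0.31 (adjusted p = 0.0464). The adjusted p was 0.0243 with a replicate block, 0.0260 in a fit of all libraries and 0.0299 with a filter of at least 1 count. Other alternatives did not pass, and none reached 2-fold. Day 5 TDECs remained below MBMECs by a log2 fold change of -2.03 (SE 0.07, adjusted p = 1.57e-21), which is a level 4.07-fold lower than in MBMECs, and 005 cells were at -3.73 (SE 0.08, adjusted p = 3.94e-13).

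Hif3a, whose proteins include short forms known to dampen HIF activity, was scarce throughout. It had 41, 59 and 37 counts in TDEC sertraline. Along the series it had 2, 3 and 3 counts in 005, 29, 19 and 11 counts on day 2, and 32, 33 and 34 counts on day 5. MBMECs had 3, 6 and 0 counts. Every TDEC library was above every 005 and MBMEC library, and replicate 3 of day 2 was the lowest among TDECs. In CPM the means were 3.31 in TDEC sertraline, 0.193 in 005, 1.49 on day 2, 2.77 on day 5 and 0.201 in MBMECs. The gene was called higher than in 005 on day 2 (log2 fold change 2.88, SE 0.53, adjusted p = 0.00149) and on day 5 (3.79, SE 0.36, adjusted p = 1.68e-06), and higher on day 5 than in MBMECs (3.77, SE 0.45, adjusted p = 8.94e-09). These fold changes rest on 8 reads in 005 and 9 in MBMECs, under the filter on low counts, so Hif3a entered these comparisons only through the TDEC libraries and had to differ in order to be tested. Day 5 over day 2 was 0.90 (SE 0.33, adjusted p = 0.0341). This rests on single libraries: without replicate 1 of day 2 it was 1.27 (adjusted p = 0.00837), past the fold threshold, and without any other 1 of the 6 libraries the adjusted p was 0.0782 to 0.0865. DESeq2 gave an adjusted p of 0.0871. The comparison of 005 with MBMECs did not include Hif3a, which fell under the filter on low counts.

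Per kilobase of exon, Hif1a held 83.6% ± 1.45 of the alpha subunit reads in TDEC sertraline (SD, n = 3 in each group), 94.0% ± 0.22 in 005, 83.4% ± 2.76 on day 2, 79.9% ± 2.098 on day 5 and 62.3% ± 2.49 in MBMECs. The Epas1 share was 15.4% ± 1.16 in TDEC sertraline, 5.90% ± 0.21 in 005, 16.2% ± 2.55 on day 2, 19.3% ± 2.09 on day 5 and 37.7% ± 2.52 in MBMECs. Hif3a took 1.28% at most, in replicate 2 of TDEC sertraline. The ratio of Epas1 to Hif1a within a library needs no scaling between libraries. It lay at 0.171 to 0.204 in TDEC sertraline, 0.0601 to 0.0642 in 005, 0.171 to 0.238 on day 2, 0.214 to 0.278 on day 5 and 0.538 to 0.665 in MBMECs. In 5 of the 6 comparisons the ratios of the 2 groups did not overlap, with a two-sided exact permutation p of 0.1, the smallest that 3 libraries against 3 allow. The exception was day 5 against day 2 (exact permutation p = 0.3). On the log2 scale the difference was 1.62 for day 2 minus 005, 1.94 for day 5 minus 005, 0.32 for day 5 minus day 2, -0.39 for TDEC sertraline minus day 5, -1.33 for day 5 minus MBMECs and -3.27 for 005 minus MBMECs. With Benjamini-Hochberg adjustment over the 6 tests, these exact permutation p became 0.12 and 0.3.

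Of the beta subunits, Arnt is broadly expressed and Arnt2 is known mainly from neural tissue. Along the series Arnt was higher on day 5 and Arnt2 was lower at each step, all within 2-fold. Arnt had 104, 98.2 and 104 CPM in TDEC sertraline. In the series it had 57.6, 52.9 and 65.3 CPM in 005, 59.99, 65.6 and 62.1 CPM on day 2, and 85.4, 90.6 and 87.8 CPM on day 5. MBMECs had 55.0, 54.9 and 50.7 CPM. The day 5 libraries lay above those of 005, day 2 and MBMECs without overlap, and those of day 2 overlapped 005. The log2 fold change of Arnt on day 5 over 005 was 0.60 (SE 0.08, adjusted p = 3.17e-05), short of 2-fold, and that on day 2 over 005 was 0.08 (SE 0.09, adjusted p = 0.538).

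Arnt2 had 63.3, 64.1 and 62.2 CPM in TDEC sertraline. The series gave 101, 98.4 and 106 CPM in 005, 77.9, 76.2 and 75.4 CPM on day 2, and 51.8, 50.2 and 51.0 CPM on day 5. MBMECs had 27.7, 27.5 and 28.8 CPM. No pair of groups overlapped. Day 5 over 005 was -0.99 (SE 0.06, adjusted p = 4.51e-08), just inside the fold threshold. It passed with scaling by library totals (-1.12), with a filter of at least 1 count (-1.002), without replicate 2 of 005 (-1.02) and without replicate 1 of day 5 (-1.01). Day 2 over 005 was -0.43 (SE 0.07, adjusted p = 0.00102). The antisense gene Gm44556 overlaps Arnt2 and had 21 to 92 counts, against 402 to 1468 for Arnt2. Per kilobase, Arnt2 made up 39.2% ± 1.09 of the Arnt and Arnt2 reads in TDEC sertraline (SD, n = 3 in each group), 64.5% ± 1.58 in 005, 56.0% ± 1.37 on day 2, 37.7% ± 1.08 on day 5 and 35.3% ± 1.61 in MBMECs. The major beta subunit RNA was thus Arnt2 in 005 and on day 2, and Arnt in the other groups.

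**Figure D2:**
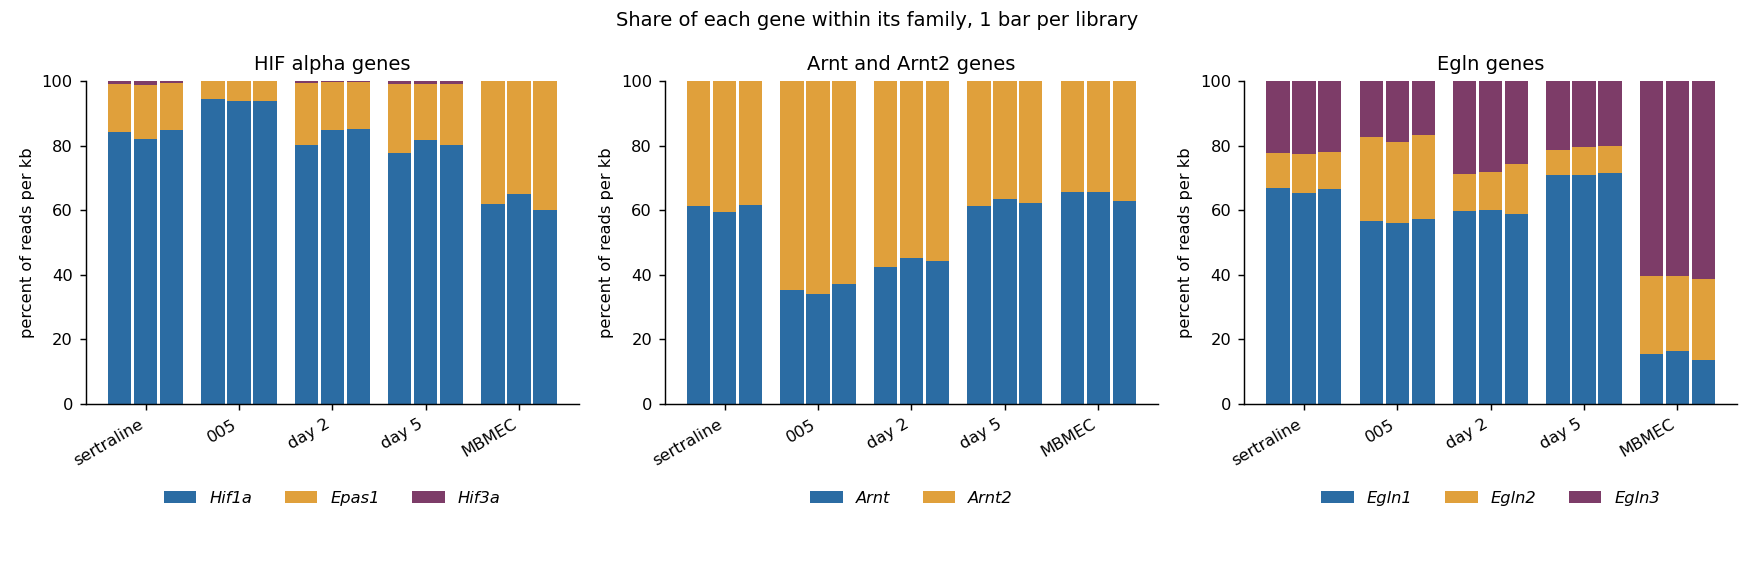
Percent of reads per kilobase of exon taken by each gene within the alpha subunits, the beta subunits and the Egln family, with 1 stacked bar per library and bars in the order TDEC sertraline, 005, TDEC day 2, TDEC day 5 and MBMEC. The Egln panel shows Egln1 at 71.1% on day 5 and Egln3 at 60.7% in MBMECs, and the beta panel shows Arnt2 at 64.5% in 005 and 37.7% on day 5.

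Egln1, the main oxygen sensor of most cells, also called PHD2, was higher at each step of the series, was called at the later one, and on day 5 had the highest level per kilobase of all members. It had 414, 422 and 441 CPM in TDEC sertraline. The series gave 161, 159 and 181 CPM in 005, 289, 282 and 229 CPM on day 2, and 617, 620 and 606 CPM on day 5. MBMECs had 76.0, 73.5 and 67.5 CPM. No groups overlapped, and replicate 3 of 005 and of day 2, the libraries that stand apart, were nearest to each other. Day 5 was called higher than 005 (log2 fold change 1.89, SE 0.06, adjusted p = 1.08e-10), higher than day 2 (1.21, SE 0.08, adjusted p = 1.92e-07) and higher than MBMECs (3.15, SE 0.05, adjusted p = 1.24e-28). Day 2 over 005 was 0.66 (SE 0.10, adjusted p = 3.44e-04), a 1.58-fold difference that did not reach the threshold. The cells of 005 were also called higher than MBMECs (1.24, SE 0.07, adjusted p = 8.24e-09).

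Egln2, or PHD1, is the family member not known to be induced by low oxygen, and it was not called in any comparison. It had 51.0, 61.1 and 58.6 CPM in TDEC sertraline. The series gave 58.0, 56.0 and 64.0 CPM in 005, 42.8, 42.9 and 46.9 CPM on day 2, and 53.9, 58.1 and 53.5 CPM on day 5. MBMECs had 91.5, 81.4 and 95.6 CPM. Day 2 was the lowest group and overlapped no other, and 005, day 5 and TDEC sertraline overlapped. Day 2 over 005 was -0.44 (SE 0.09, adjusted p = 0.00263), day 5 over day 2 was 0.33 (SE 0.07, adjusted p = 0.00236), and day 5 over 005 was -0.10 (SE 0.08, adjusted p = 0.284). With scaling by library totals the last value was -0.23 (adjusted p = 0.0200).

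Egln3, or PHD3, known to be strongly induced by low oxygen, rose on day 2 already. It had 102, 109 and 108 CPM in TDEC sertraline. The series gave 36.4, 39.7 and 38.7 CPM in 005, 103, 97.5 and 74.5 CPM on day 2, and 138, 132 and 127 CPM on day 5. MBMECs had 219, 202 and 224 CPM, above all other libraries. Replicate 3 of day 2 was the lowest of its group and still above 005. Over 005, Egln3 was called higher on day 2 (log2 fold change 1.25, SE 0.12, adjusted p = 1.60e-05) and on day 5 (1.80, SE 0.07, adjusted p = 3.64e-10). Day 5 over day 2 was 0.54 (SE 0.10, adjusted p = 8.89e-04), short of the threshold. Day 5 TDECs over MBMECs was -0.63 (SE 0.05, adjusted p = 3.34e-12), and 005 was called lower than MBMECs at -2.45 (SE 0.07, adjusted p = 5.59e-12).

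Within the Egln family, TDECs and MBMECs differed in which sensor prevailed. Per kilobase, Egln1 took 66.3% ± 0.95 of Egln reads in TDEC sertraline (SD, n = 3 in each group), 56.6% ± 0.70 in 005, 59.6% ± 0.75 on day 2, 71.1% ± 0.46 on day 5 and 15.2% ± 1.34 in MBMECs. Egln3 took 22.4% ± 0.32 in TDEC sertraline, 17.6% ± 1.13 in 005, 27.6% ± 1.58 on day 2, 20.7% ± 0.57 on day 5 and 60.7% ± 0.54 in MBMECs. Egln2 took 11.4% ± 0.76 in TDEC sertraline, 25.8% ± 0.51 in 005, 12.8% ± 2.26 on day 2, 8.20% ± 0.32 on day 5 and 24.1% ± 0.85 in MBMECs, so that it ranked above Egln3 in 005 and below it in the other groups. The share of Egln3 was thus highest on day 2 within the series, while its level was highest on day 5. Summed Egln reads per kilobase were 3.39 ± 0.26 times the summed alpha subunit reads in TDEC sertraline, 1.55 ± 0.18 times in 005, 2.38 ± 0.54 times on day 2, 4.65 ± 0.09 times on day 5 and 1.18 ± 0.06 times in MBMECs. This rests on the division by exon length. Without it, an alternative chosen after seeing the data, the ratio was 1.91 ± 0.14 in TDEC sertraline, 0.850 ± 0.10 in 005, 1.32 ± 0.30 on day 2, 2.65 ± 0.05 on day 5 and 0.577 ± 0.03 in MBMECs. The ratio was highest on day 5 either way, while in 005 and MBMECs the sensors were above the alpha subunits only per kilobase.

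Vhl, which recognizes the hydroxylated alpha subunit, was higher at both steps by less than 2-fold. It had 94.2, 89.4 and 92.5 CPM in TDEC sertraline. The series gave 44.7, 47.9 and 47.6 CPM in 005, 62.7, 62.2 and 54.1 CPM on day 2, and 86.3, 78.7 and 91.5 CPM on day 5. MBMECs had 35.95, 30.05 and 32.2 CPM, below all other libraries. The groups of the series did not overlap, and TDEC sertraline overlapped day 5. Day 5 over 005 was 0.88 (SE 0.07, adjusted p = 5.79e-07), day 5 over day 2 was 0.53 (SE 0.08, adjusted p = 1.77e-04), and day 2 over 005 was 0.34 (SE 0.09, adjusted p = 0.0124). Without replicate 1 of day 2 the last value was 0.30 (adjusted p = 0.0571). Vhl was called higher on day 5 than in MBMECs (1.45, SE 0.07, adjusted p = 7.44e-17). A processed copy, Vhl-ps1, had 0 counts in all libraries.

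Hif1an, the asparaginyl hydroxylase also called FIH, was the steadiest member. It had 65.7, 58.3 and 62.8 CPM in TDEC sertraline. The series gave 68.7, 67.2 and 71.8 CPM in 005, 65.3, 69.8 and 59.9 CPM on day 2, and 57.6, 59.8 and 58.5 CPM on day 5. MBMECs had 56.7, 56.5 and 59.0 CPM. Neighbours in the order of the group means overlapped in every case. In contrast, 005 did not overlap TDEC sertraline, day 5 or MBMECs, and day 2 did not overlap day 5 or MBMECs. Day 5 over 005 was -0.23 (SE 0.06, adjusted p = 0.00794), day 5 over MBMECs was 0.10 (SE 0.06, adjusted p = 0.143), and 005 over MBMECs was 0.30 (SE 0.07, adjusted p = 0.00117).

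**Figure D3:**
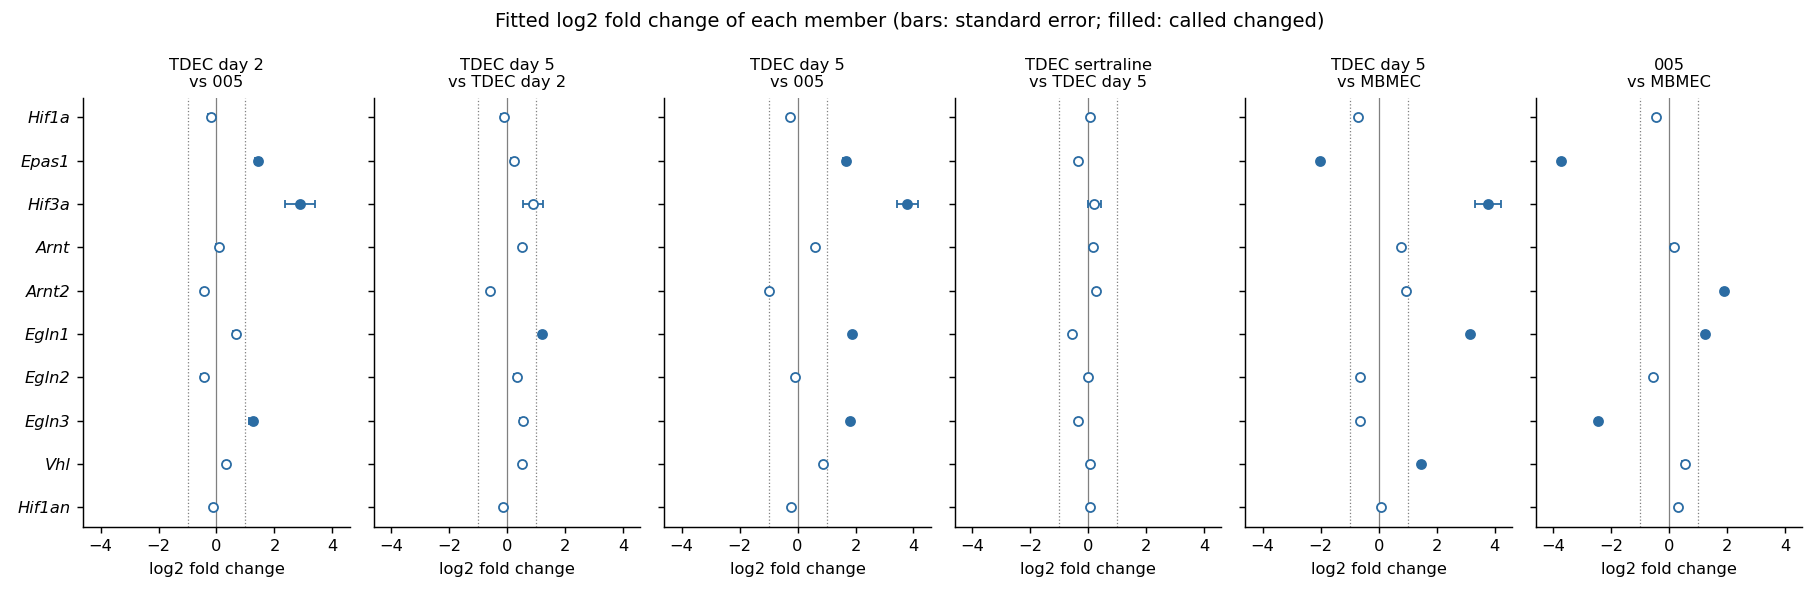
Fitted log2 fold change of each gene in the 6 comparisons, with the standard error as bar, filled points for genes called changed and dotted lines at a log2 fold change of 1 in either direction. Epas1, Hif3a and Egln3 are called on day 2 over 005, Egln1 joins them on day 5, and no point is filled for TDEC sertraline over TDEC day 5.

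Set against all genes, the calls were as follows. On day 2 over 005, 3 of 10 members were called, all higher (Epas1, Hif3a and Egln3), where 9.83% of 15344 tested genes were called. Without Hif3a, which passed the filter only through TDECs, this was 2 of 9. At the adjusted p alone 7 of 10 passed, or 6 of 9 without Hif3a, where 39% of all genes did. On day 5 over 005, 4 of 10 were called, or 3 of 9 without Hif3a, all higher, where 23.5% of 15648 genes were called. At the adjusted p alone 9 of 10 passed there, or 8 of 9 without Hif3a, where 65.4% of all genes did. Without Hif3a, the median log2 fold change of the other 9 members over 005 was 0.08 on day 2, beside -0.02 over all tested genes, and 0.60 on day 5, beside -0.01. On day 5 over day 2, Egln1 alone was called, 1 of 10, where 20.5% of 15508 genes were called, and 7 of 10 passed at the adjusted p alone, where 63% did. With so many genes changed in each comparison, these shares describe the members only. Cell type markers moved along with them. The 8 glioma and neural stem cell markers summed to 2364 to 2590 CPM in 005, 1844 to 2225 CPM on day 2 and 1385 to 1453 CPM on day 5, and the 6 astrocyte markers to 525 to 542 CPM in 005, 978 to 983 CPM on day 2 and 792 to 870 CPM on day 5, with none of them at 0 counts in these groups. Single markers went against the sums: the stem cell marker Prom1 was called higher than in 005 on day 2 (1.42) and on day 5 (2.104), and Fabp7 higher on day 2 (1.06). The astrocyte marker S100b was called lower on day 5 over 005 (-1.21), at 0.530 CPM against 1.25 CPM, and was tested there only through 005. Gfap (3.07) and Slc1a2 (1.81) were called higher on day 5 over 005. Most of the astrocyte sum was Slc1a3, with 712 CPM on day 5, which was not called (0.52). The 8 leukocyte markers summed to 12.2 to 13.4 CPM in 005, 14.9 to 16.4 CPM on day 2 and 34.5 to 39.97 CPM on day 5. On day 5 most of the sum was Cd68 (mean 27.6 CPM), while in 005 Csf1r (7.45 CPM) was above Cd68 (4.63 CPM). The share of mitochondrial reads lay between 2.16% and 2.70% in 005, between 2.102% and 2.35% on day 2, and between 3.48% and 3.60% on day 5. Their part in the members' differences was not tested.

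Of the 10 members 0 were called for TDEC sertraline over TDEC day 5, by edgeR as by DESeq2, where 5.08% of 15540 genes were called by edgeR. At the adjusted p alone 5 of 10 passed, where 35.3% of all genes did, and the same 5 had an unadjusted p under 0.05. Of these 5, Egln1 differed most, with 414 to 441 CPM in TDEC sertraline, against 606 to 620 CPM in TDEC day 5 (log2 fold change -0.56, SE 0.05, adjusted p = 2.92e-07). Egln3 had 102 to 109 CPM in TDEC sertraline, against 127 to 138 CPM in TDEC day 5 (-0.35, SE 0.06, adjusted p = 1.97e-04). Epas1 had 43.2 to 46.5 CPM in TDEC sertraline, against 49.99 to 63.1 CPM in TDEC day 5 (-0.33, SE 0.08, adjusted p = 0.00523). These are the members called on day 5 over 005 other than Hif3a, whose value with sertraline was 0.22 (SE 0.24, adjusted p = 0.507). TDEC day 5 libraries serve in both comparisons, so the opposite signs are not independent. Arnt2 was at 0.28 (SE 0.06, adjusted p = 0.00230) and Arnt at 0.18 (SE 0.06, adjusted p = 0.0197), with adjusted p of up to 0.0775 for Arnt when 1 library was left out. Hif1a was at 0.06 (adjusted p = 0.402), or 0.12 without replicate 2 of TDEC sertraline (adjusted p = 0.0188). Other values moved with the drug. The 10 mural and fibroblast markers summed to 16.6 to 20.7 CPM in TDEC sertraline, against 6.94 to 8.86 CPM in TDEC day 5, with 3 of 4 tested called higher (Acta2 at 2.58, Dcn at 2.30 and Col1a1 at 1.29). Acta2 had a mean of 4.49 CPM in TDEC sertraline, against 0.724 CPM in TDEC day 5, and Dcn 1.59 CPM, against 0.300 CPM. These 2 passed the filter on low counts only through TDEC sertraline and had to differ in order to be tested. Prom1 (-1.60) and Flt1 (-1.03) were called lower. Mitochondrial reads made up 2.47 to 2.62% of counts in TDEC sertraline, against 3.48 to 3.60% in TDEC day 5. Their part in the members' differences was not tested. The titles of the treated libraries lack a prefix that those of 005 and untreated TDECs share, so a difference in series or handling cannot be told apart from the drug.

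Against MBMECs, 4 of 10 members were called on day 5, or 3 of 9 without Hif3a, with Egln1, Hif3a and Vhl higher and Epas1 lower, where 48.9% of 16135 genes were called. At the adjusted p alone 9 of 10 passed, or 8 of 9 without Hif3a, where 85.8% did. For 005 over MBMECs, 4 of 9 tested members were called, with Egln1 and Arnt2 higher and Epas1 and Egln3 lower, where 44% of 15992 genes were called, and 8 of 9 passed at the adjusted p alone, where 79.7% did. Hif1a was lower than in MBMECs on day 5 (-0.70, SE 0.05, adjusted p = 4.98e-14) and in 005 (-0.46, SE 0.06, adjusted p = 2.55e-05), both short of the fold threshold. Arnt2 on day 5 was at 0.93 over MBMECs (SE 0.07, adjusted p = 9.97e-13) and Arnt at 0.78 (SE 0.06, adjusted p = 1.18e-12). The endothelial markers, 16 of 16 lower in TDEC day 5 and in 005 than in MBMECs, moved with these comparisons, as did mitochondrial reads, at 1.41 to 1.62% of counts in MBMECs, and their part in the result was not tested. The titles of MBMECs also lack the prefix shared by 005 and untreated TDECs, so a difference in series or handling cannot be told apart from the cell type.

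**Figure D4:**
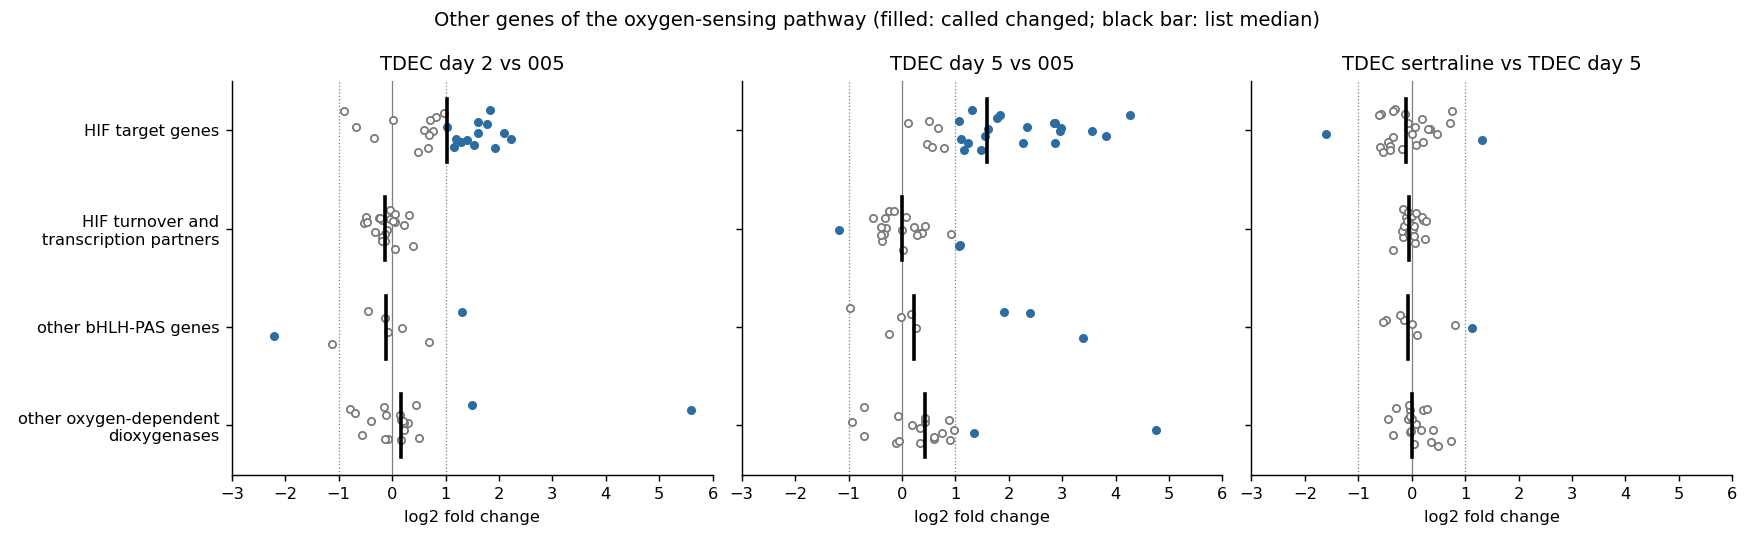
Log2 fold change of other genes of the oxygen-sensing pathway in 4 lists, with 1 point per tested gene, filled where called changed, a black bar at the list median and dotted lines at a log2 fold change of 1 in either direction. HIF target genes lie to the right on day 2 (median 1.02) and day 5 (median 1.59) over 005 and near 0 for TDEC sertraline over TDEC day 5 (median -0.10).

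Many genes that HIF is known to switch on were higher in TDECs. Of the listed targets, 13 of 25 tested were called on day 2 over 005, where 9.83% of all genes were, and 20 of 26 on day 5, where 23.5% of all genes were, all of them higher, with a median log2 fold change of 1.02 on day 2 and 1.59 on day 5. At the adjusted p alone 20 were higher and 3 lower on day 2, where 39% of all genes passed. The lower ones, named after their values were seen, were Ndrg1 (-0.91), Mxi1 (-0.68) and Stc2 (-0.34). On day 5 the called targets included Pfkfb3, which drives glycolysis, with 497 CPM on day 5 against 69.1 CPM in 005 (log2 fold change 2.86), and the glucose transporter gene Slc2a1 (2.98), the oxidase of the endoplasmic reticulum Ero1l (3.55) and Pdk1, a brake on pyruvate oxidation (2.33). On day 5 over day 2, 9 of 26 were called, all higher, where 20.5% of all genes were called, with Stc2, a secreted glycoprotein, at 2.59. Car9 was counted among the called targets of day 5 over 005 (4.26) and over day 2 (3.14). It fell under the filter on low counts for day 2 over 005. In both day 5 comparisons it was therefore tested only through day 5 and had to differ. With sertraline Adm, which encodes the vasodilator adrenomedullin, was called higher (95.1 CPM, against 37.1 CPM on day 5) and the carbonic anhydrase gene Car9 lower (1.13 CPM, against 3.40 CPM), where 5.08% of all genes were called. At the adjusted p alone 12 of 26 targets were lower with sertraline and 5 higher, where 35.3% of all genes passed, with a median over all 26 of -0.10. Among those named after their values were seen, the glycolysis genes Pgk1 (-0.62) and Eno1 (-0.58) and the mitophagy gene Bnip3 (-0.60) were lower, and Bhlhe40 (0.75) and Ddit4 (0.72) higher.

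The log2 fold changes of 21 tested partners in HIF turnover and transcription lay between -0.53 and 0.40 on day 2 over 005 and between -0.36 and 0.26 for TDEC sertraline over TDEC day 5. On day 5 over 005, 3 of 21 were called, where 23.5% of all genes were: Cited2, which competes with HIF for coactivators (1.09, SE 0.08), and Siah2, a ligase for EGLN proteins (1.06, SE 0.09), were higher, and its relative Siah1b was lower (-1.18, SE 0.14). On day 5 over MBMECs, 6 of 21 were called, where 48.9% of all genes were, among them P4htm (3.15), a membrane-bound prolyl hydroxylase gene, and Usp20 (2.30), a deubiquitinase gene. Among other genes of the bHLH-PAS family, to which the HIF subunits belong, Arntl, Npas2 and Npas1 were called higher on day 5 over 005, 3 of 8 tested, where 23.5% of all genes were called. Npas2 had 6.87 CPM on day 5 and 0.652 CPM in 005, and Npas1 had 3.20 CPM on day 5 and 0.602 CPM in 005. Both were under the filter on low counts in 005, passed it only through day 5 and had to differ in order to be tested. Of 19 other dioxygenases that use oxygen, 2 were called higher on day 5 over 005, where 23.5% of all genes were called, the collagen-modifying enzyme gene Plod2 (1.36) and P4ha3, which had 1.53 CPM on day 5 and 0.048 CPM in 005 and passed the filter only through TDECs. Over MBMECs, day 5 had 11 of 19 dioxygenase genes called higher and 2 lower, where 48.9% of all genes were called, among them the histone demethylase genes Kdm5b (2.88) and Kdm6b (1.86).

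Correlations between members across all 15 libraries are a description, since the 3 libraries of a group share its conditions. Epas1 and Egln3 varied together (Pearson r = 0.93 of log2 CPM), both highest in MBMECs and lowest in 005, and opposite to Arnt2 (-0.96 for Epas1 and -0.93 for Egln3). Egln1 and Vhl varied together (0.97), as did Hif3a with Vhl (0.91) and Egln1 (0.89), all high on day 5 and low in MBMECs, and opposite to Hif1a (-0.91 for Egln1). Arnt was close to Vhl (0.92), Hif1an to Arnt2 (0.81) and Egln2 to Hif1a (0.81). Of 13615 other named genes, the closest to Egln1 were Lrig1, Appl2 and Agap1 (each 0.99), and to Egln3 Flt1, a VEGF receptor gene (0.99), Jup (0.98) and Wdr81 (0.98). Genes close to Epas1 included Smad6 and Sin3b (each 0.99), and Hif3a was matched by Dhx40 (0.97), Insig2 and Tiparp (each 0.96), and Hif1a by Ctps (0.98), Nup98 and Senp5 (each 0.97). These neighbours depend on the measure: with Spearman's rank correlation 1 of 3 was shared for Hif1a and 0 of 3 for each of the other 4 genes. Flt1 is also 1 of the 16 endothelial markers, with a mean of 20.4 CPM in TDEC sertraline, 1.69 CPM in 005, 14.95 CPM on day 2, 40.8 CPM on day 5 and 176 CPM in MBMECs.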

How the data were processed

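Poly(A) RNA of 15 libraries was sequenced with a directional kit. The authors deposited raw counts of reads per gene for 49585 genes, made per their processing notes with bcl2fastq 2.19, Trimmomatic 0.38, HISAT2 2.1.0 and featureCounts 1.6.3 on mm10. The strand setting and annotation release are not given in the sources used here. Untreated TDECs carry no day in their labels and were taken as day 5 from the treatment protocol. The members and gene lists were chosen with earlier results of these data known. In each of 6 comparisons, the 6 libraries were fitted in R 4.3.3 with edgeR 4.0.16 (TMM, filterByExpr with a minimum count of 10, quasi-likelihood test, Benjamini-Hochberg adjustment), with the thresholds of the study's methods, a fold change of 2 and q under 0.05; edgeR was chosen for this work. The script was tested on simulated data. CPM was scaled by TMM over 15 libraries, and correlations used log2 CPM with a prior count of 2. Levels between genes were divided by the union of GENCODE M21 exons, and 9 of 10 members had the same start and end there. Ratios were compared by exact permutation tests. Alternatives were other scalings, DESeq2 1.42.0, a filter of at least 1 count, a fit of all libraries, a replicate block and leaving out each library. All 10 members are named, and of each list described up to 4 called genes per direction by smallest p. One gene close to Epas1 is not reported here.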

Additional observations from a re-analysis of the deposited data

How the results depend on the processing

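Of 718 member fold changes computed under alternatives, 707 kept their direction and their side of the threshold, 6 changed direction and 5 passed the threshold newly. The number of members called on day 5 over day 2 was 1 to 2 when 1 library was left out, with Hif3a added without replicate 1 of day 2. Values near 0 changed sign: leaving out 1 library gave Hif1a on day 5 over day 2 -0.19 to 0.023 (0.023 without replicate 3 of day 2), and for TDEC sertraline over TDEC day 5 Hif3a -0.0049 to 0.35 (-0.0049 without replicate 2 of TDEC sertraline) and Egln2 -0.039 to 0.090. The cause was not tested. Scaling by library totals moved the median of all genes to -0.14 on day 5 over 005 (main -0.01) and to 0.30 for 005 over MBMECs (main 0.09), and no member changed direction with it. No pairing by replicate number was seen, as deviations of equal number correlated at -0.08 to 0.08, but this cannot exclude that such libraries shared a culture. With a replicate block 1402 genes were called on day 2 over 005, against 1508 without it, and the calls of all members were unchanged. Without the 2 libraries that stand apart, an alternative chosen after seeing the data, 3 of 10 members were called on day 2 over 005 as before. Hif3a is limited by depth, at 0 to 59 counts per library.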
